A study of Mus musculus with 2 samples.

Results

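The genes described here encode the translation initiation factors, chosen as every mouse gene whose symbol begins with Eif1 to Eif6, without the eIF2 alpha kinases (Eif2ak), pseudogenes and the Y-linked Eif2s3y. The rule found 51 genes of 43346 in the gene tables and used no measured value. They were measured in 1 group of 2 RNA-seq libraries from G1E-ER4 cells, 3 h after 17beta-estradiol was added at 10 nM. G1E-ER4 is an immortalised, male-derived mouse erythroid line, labelled postnatal, that lacks its own Gata1 and carries GATA1 fused to the ligand-binding part of the estrogen receptor, so estradiol activates the factor. Both libraries share this line, its Gata1 background and the treatment. The labels number them as biological replicates 1 and 2 but give a single biosample record for both, so p-values and spreads may reflect technical differences only. Untreated cells were not analysed here, so each value is a level and none is a response to the hormone.

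Initiation begins when eIF2, carrying GTP and the initiator tRNA, joins eIF1, eIF1A, eIF3 and eIF5 on the small ribosomal subunit. The eIF4 factors bind the cap of the mRNA (eIF4E), unwind its leader (eIF4A with eIF4B or eIF4H) and hold the assembly together (eIF4G), while the eIF4E-binding proteins block cap binding when mTOR is inactive. After start codon recognition eIF5 stimulates GTP hydrolysis, eIF5B joins the large subunit, and eIF2B reloads eIF2 with GTP. Erythroid cells depend on this step because globin synthesis is tuned to heme through the kinase HRI (Eif2ak1), which phosphorylates the alpha subunit of eIF2.

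Of the 51 genes, 47 reached at least 1 TPM in both libraries (TPM, a unit of abundance, adjusts counts for length and gives each library an equal total). The same level was reached by 20.2% of all genes and by 38.6% of protein-coding genes. Of the 47, 2 averaged above 1000 TPM, 24 averaged 100 to 1000 TPM, 14 averaged 10 to 100 TPM and 7 averaged 1 to 10 TPM. Both libraries placed 21 of the 47 at 100 TPM or more, against 13.3% of the 8281 protein-coding genes detected at 1 TPM in both. Ranked by mean TPM among those 8281 genes, 17 of the 47 initiation factors stood in the top 10%. Together the 51 genes held 2.19% of expected counts in replicate 1 and 1.73% in replicate 2. Eif5a alone made up 34.7% and 24.2% of their summed TPM. In these bulk libraries, fewer cells with a transcript and less of it per cell cannot be told apart.

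**Figure D1:**
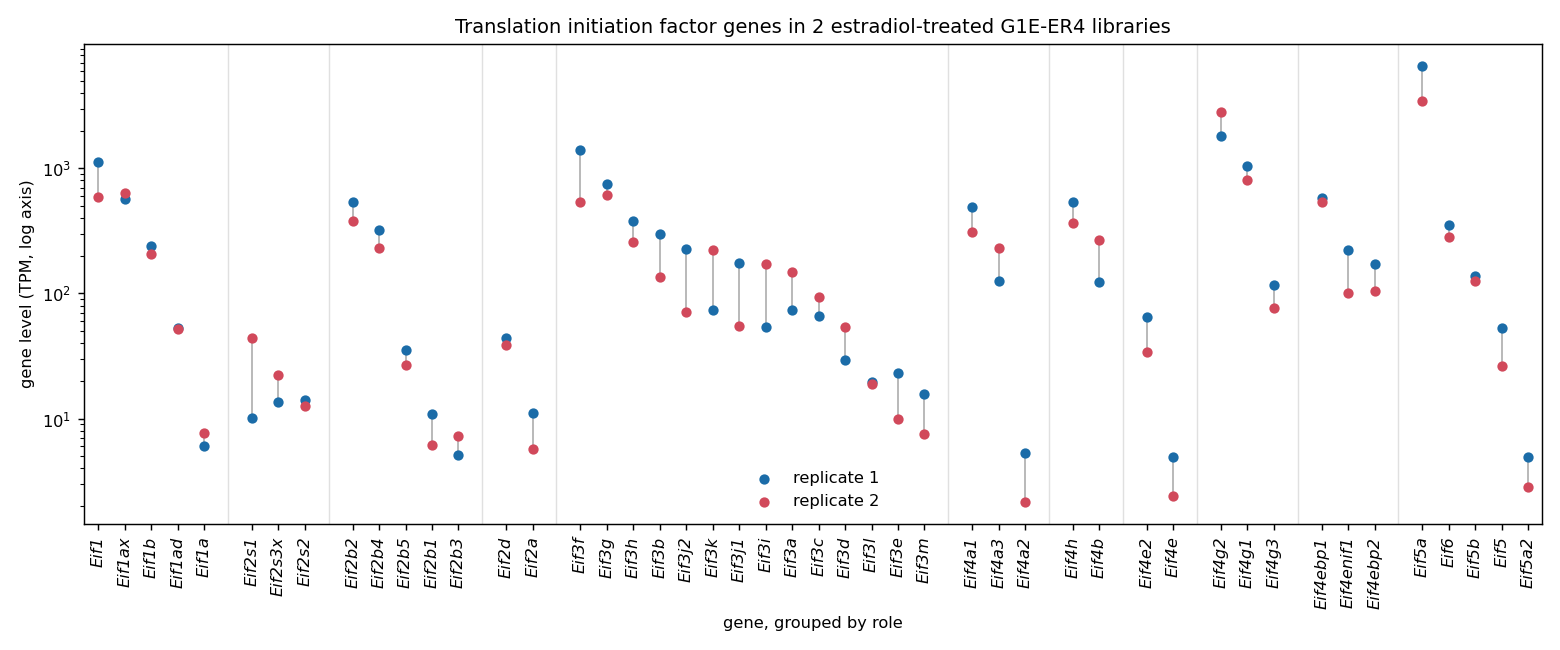
Levels of the 47 detected genes in TPM on a log axis, grouped by role along the horizontal axis; each point is 1 library (blue for replicate 1, red for replicate 2) and grey lines join the libraries of a gene. Eif5a is the highest gene in both libraries, and Eif4e, Eif4a2 and Eif5a2 lie at the bottom of their families.

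The promoters were read for 2 short elements, one that mTOR-controlled mRNAs are known for and one that MYC and related factors bind. The RefSeq promoter table (GRCm38.p6, 250 bases before to 50 after each annotated start) held 39 of the 51 genes. A run of at least 8 unbroken C or T letters beginning within 10 bases of the start, read along the gene's strand, stood at 6 of the 39 (15.4%): Eif2b2, Eif2c5, Eif2s3x, Eif3f, Eif3l and Eif4enif1. Among detected members alone the share was 13.2%. The run of at least 8 stood at 10.8% of detected genes in the table and at 33.3% of 63 ribosomal protein genes, the classic carriers of this terminal oligopyrimidine tract. With a run of at least 6 letters the order of members and detected genes turned, at 23.1% (21.1% for detected members) and 25.8%. Of the starts with the longer run 3 are shown, since Eif3f is the highest eIF3 gene in replicate 1, Eif2s3x and Eif3f lie at least 2-fold apart between the libraries in opposite directions, and Eif3l lies close together in both; capitals mark the tract, which in Eif3f and Eif2s3x runs past the end of the window. The windows are chr7:108934395-108934424 on the plus strand, chrX:94212642-94212671 on the minus strand and chr15:79075203-79075232 on the plus strand.
Eif3f: gctcttctgttctaggCTCTCTCTCTTTCT
Eif2s3x: ggcggctgccgagcaTTTTCCTTTTCTCTC
Eif3l: agcaggcgcggagTTCTTCTTCCgctctct

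The palindrome CACGTG, an E-box looked for after values had been seen and the same on both strands, was in the promoter window of 10 of the 39 genes (25.6%). All genes of the table held it in 8.09% of cases, and detected genes in 12.9%. Genes with several annotated starts, such as Eif5a, have more chances to hold it. The 10 were Eif1b, Eif3a, Eif3f, Eif3k, Eif4a1, Eif4e, Eif4g1, Eif4h, Eif5a and Eif5a2. The letters thus stood in windows of genes of very high level (Eif5a) and very low level (Eif4e) alike. In Eif3a they began 22 bases after the start, and in Eif4e only the window of its downstream start held them. Windows around the E-box of the scaffold gene Eif4g1 (chr16:20672661-20672690, plus strand), the subunit gene Eif3k (chr7:28981915-28981944, minus strand) and Eif5a (chr11:69921443-69921472, minus strand) are shown with the palindrome in capitals; a match here is a description of letters, not of binding.
Eif4g1: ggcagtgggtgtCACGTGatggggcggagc
Eif3k: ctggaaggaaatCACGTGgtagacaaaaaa
Eif5a: aaggggcggggtCACGTGtgtgcgtcatcc

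Before the values by role, the spread between the libraries sets how finely they can be read. A two-sided exact binomial test on counts scaled by TMM library sizes, adjusted by Benjamini-Hochberg over 10635 genes, placed 43 of the 47 detected factors beyond counting noise. Of all genes tested, 80.7% were placed there, so the count says little about these genes. Replicate 1 was higher for 21 of the factors (37.4% of all genes tested) and replicate 2 for 22 (43.3%). With libraries scaled by total counts, these numbers were 25 and 17. Only Eif2b4, Eif2b5, Eif3g and Eif6 did not pass, with adjusted p of 0.274, 0.195, 0.126 and 0.523 in the same exact binomial test. A difference of at least 2-fold in scaled counts was seen for 10 of the 47, against 26.5% of all genes tested. It favoured replicate 2 in 8 of them (19.3% of all genes tested) and replicate 1 in 2 (7.21%). The median size of the difference was 1.55-fold for the factors and 1.51-fold for all genes tested. The test compares these libraries and measures counting noise only; library scaling by total counts gave 4 rather than 2 genes at least 2-fold higher in replicate 1.

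**Figure D2:**
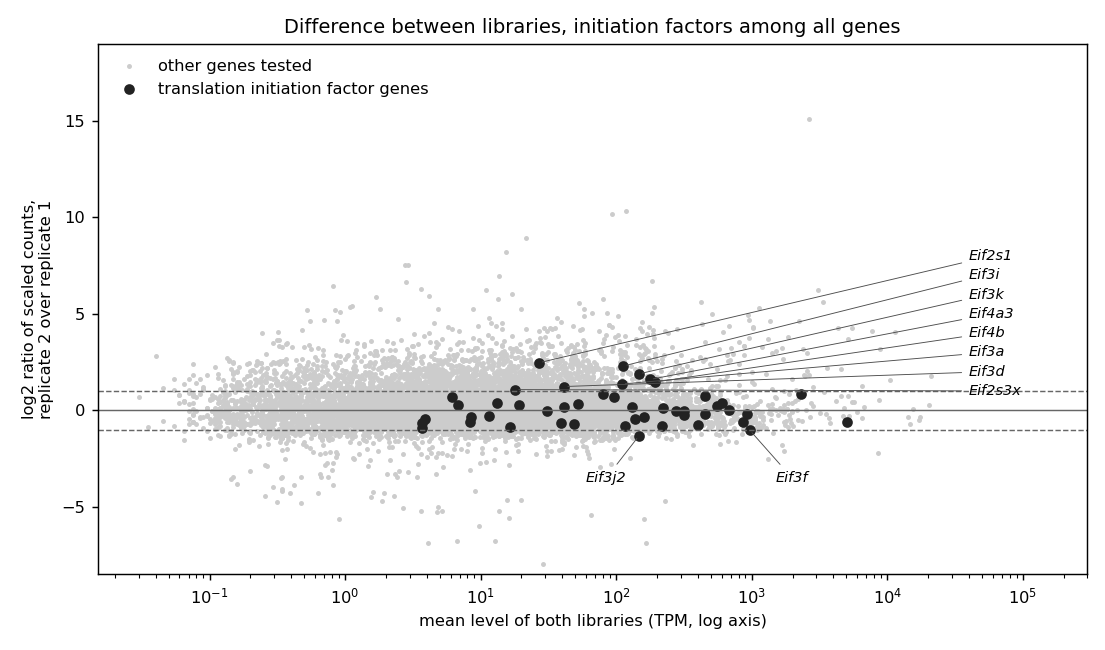
Log2 ratio of scaled counts, replicate 2 over replicate 1, against mean TPM (log axis) for all genes tested (grey) and the initiation factors (black); dashed lines mark 2-fold. The 10 named genes lie outside the dashed lines, 8 above and 2 below, within the cloud of all genes.

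The scanning factors eIF1 and eIF1A keep the small subunit open until a start codon is met. Eif1 had 1133 TPM in the first library and 590 TPM in the second (861 ± 384 TPM, SD, n = 2), and its paralog Eif1b had 238 and 207 TPM. Eif1 was thus the higher of the pair in both libraries, 4.76-fold and 2.85-fold in TPM. Their coding sequences are both 342 bases long and 81.3% identical, with no run of 50 bases in common. Other genes do share sequence with Eif1: 31.6% of the 50-base words of its main transcript occur in 18 of them, the closest being Emd (19.1 and 32.3 TPM). The first 120 coding bases of the GENCODE M21 transcripts are shown, with the 19 differing bases in capitals; Eif1 lies at chr11:100319885-100322096 and Eif1b at chr9:120492232-120495330.
Eif1: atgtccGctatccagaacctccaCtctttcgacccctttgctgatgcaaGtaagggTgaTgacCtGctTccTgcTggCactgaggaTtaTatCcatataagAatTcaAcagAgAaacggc
Eif1b: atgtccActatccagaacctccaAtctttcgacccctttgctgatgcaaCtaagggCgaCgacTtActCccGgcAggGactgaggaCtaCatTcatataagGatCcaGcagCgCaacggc

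Eif1ax, the X-linked gene of eIF1A, was listed at 571 and 636 TPM, and the autosomal Eif1a at 6.05 and 7.65 TPM. Most of the Eif1ax figure was not assigned to its coding transcript. A 416-base transcript of the retained-intron class, Eif1ax-202, held 99.6% and 99.7% of the gene's TPM, and the coding transcript had 2.51 TPM in replicate 1 and 1.60 TPM in replicate 2. Exons of the coding transcript cover 77.4% of Eif1ax-202, so this split of fragments is an estimate. By the TPM assigned to coding transcripts, Eif1a was the higher of these genes in both libraries. The remaining gene, Eif1ad, which encodes a protein with an eIF1A-like domain, was at 52.9 and 52.4 TPM. Its exons overlap those of Banf1 on the other strand by 428 bases, Banf1 was at 463 and 452 TPM, and how far strand was used in counting is not given in the sources used here.

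The 3 genes of the eIF2 complex, which brings the initiator tRNA, stood below the median of the detected initiation factors in both libraries (116 and 100 TPM) and changed order between them. Eif2s1, the alpha subunit that the stress kinases phosphorylate, had 10.1 TPM in replicate 1 and 43.7 TPM in replicate 2, from 819 and 7455 expected counts. This was 5.51-fold higher in replicate 2 on scaled counts, the widest gap among the 47 factors. The gamma subunit Eif2s3x, at chrX:94188707-94212862, had 13.6 and 22.4 TPM and was 2.10-fold higher in replicate 2 (adjusted p = 9.80e-126, exact binomial test). For the beta subunit Eif2s2 the levels were 14.0 and 12.5 TPM. Eif2s2 was thus the highest of the complex in replicate 1 and the lowest in replicate 2, and Eif2s1 the reverse, although in replicate 1 the 95% Poisson intervals of Eif2s2 (13.0 to 15.1 TPM) and Eif2s3x (12.8 to 14.4 TPM) overlap. The SD of log2 TPM over the 3 genes was 0.26 in replicate 1 and 0.90 in replicate 2. Pseudogene sequence resembles part of the complex: Gm2223 shares 36.2% of the 50-base words of Eif2s3x and Gm9892 shares 27.8% of those of Eif2s2, and both stood below 0.3 TPM.

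The exchange factor eIF2B has 5 subunit genes, and their listed levels spanned 105-fold in replicate 1 and 61.6-fold in replicate 2. Eif2b2 (beta) had 533 and 378 TPM, and Eif2b4 (delta) 319 and 231 TPM. The catalytic epsilon subunit Eif2b5 had 35.3 and 26.7 TPM. Eif2b1 (alpha) followed with 10.8 and 6.13 TPM, and Eif2b3 (gamma) with 5.08 and 7.27 TPM. The 2 high values were assigned mostly to short transcripts. Eif2b2-206, a retained-intron transcript of 338 bases, held 89.3% of the Eif2b2 TPM in replicate 1 and 69.5% in replicate 2. Exons of the longest coding transcript cover 97.9% of Eif2b2-206, so this split is an estimate. Coding transcripts of Eif2b2 summed to 34.0 and 101 TPM. For Eif2b4, transcripts absent from GENCODE M21 held 92.5% and 87.9%, led by one of 512 bases, and the listed coding transcripts summed to 23.9 and 28.0 TPM. For Eif2b2 the scaled counts were 1.66-fold higher in replicate 2, while its TPM was lower there. Such opposite signs between TPM and scaled counts were seen for 10 of the 47 factors and for 16.6% of all genes tested. They also occurred in genes with 1 transcript. Eif1b had log2 ratios, replicate 2 over replicate 1, of -0.20 in TPM + 1 and 0.13 in scaled counts. The TPM ratio also lay below the scaled ratio for single-transcript Eif3a (1.00 and 1.36) and Eif4h (-0.54 and -0.19). What set these gaps was not tested.

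Alternative carriers of initiator tRNA were modest, and the order of the pair held in both libraries. Eif2d had 44.2 and 38.8 TPM, and Eif2a, an eIF2-independent carrier distinct from the alpha subunit of eIF2, had 11.0 and 5.71 TPM. The ratio of Eif2a to Eif2d was 0.250 in replicate 1 and 0.147 in replicate 2.

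Among the 14 genes of eIF3, the large scaffold on the small subunit, levels ranged 88.6-fold in replicate 1 and 81.2-fold in replicate 2. The SD of log2 TPM over the subunits was 2.02 and 1.95. Eif3f was the highest in replicate 1, with 1390 TPM, and had 539 TPM in replicate 2. Eif3g, an RNA-binding subunit, was the highest in replicate 2, with 755 TPM in replicate 1 and 609 TPM in replicate 2. Both lie well above the median of the complex, 73.7 TPM and 115 TPM. Eif3m was the lowest in both, with 15.7 and 7.50 TPM, and 41.4% of the 50-base words of its main transcript also occur in the pseudogene Gm7658, which was at 0.08 and 0.02 TPM. Over the 14 genes Spearman's rho between the libraries was 0.82, given as a description because the genes share their libraries.

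**Figure D3:**
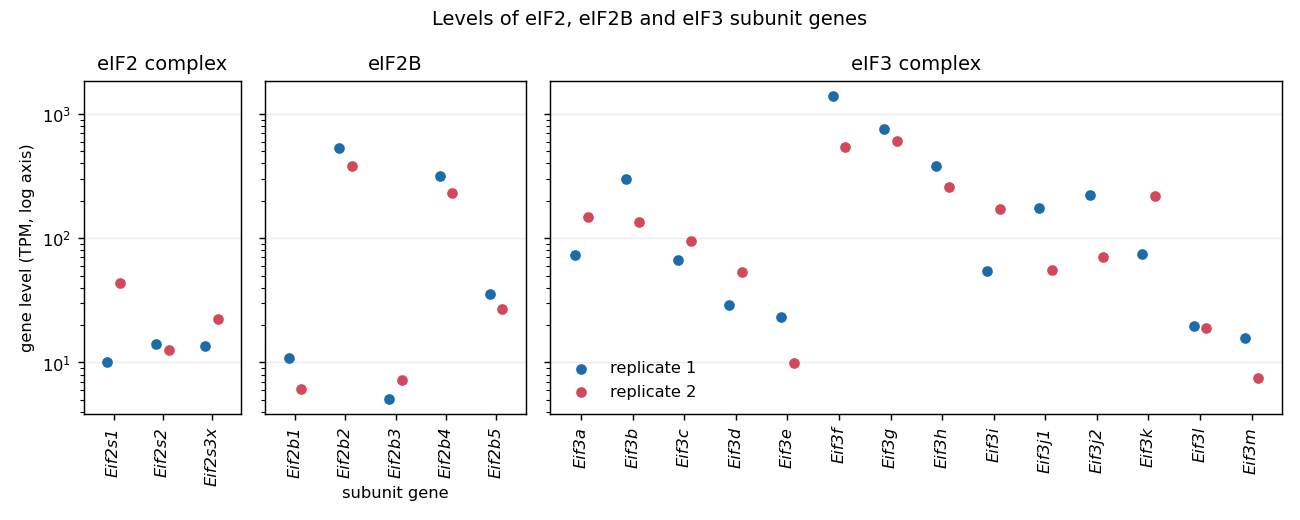
Levels in TPM on a shared log axis of the subunit genes of eIF2, eIF2B and eIF3, 1 point per library (blue for replicate 1, red for replicate 2). The eIF2 genes lie within 3.49-fold of each other in either library, whereas eIF3 and eIF2B genes spread over 61.6-fold or more.

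The eIF3 genes furthest apart between the libraries went in both directions. Eif3i, a WD-repeat subunit, had 54.2 TPM in replicate 1 and 172 TPM in replicate 2, 4.91-fold higher there on scaled counts. Eif3k, a small peripheral subunit, had 74.3 and 220 TPM (3.70-fold higher in replicate 2). The largest subunit Eif3a, part of the core, had 73.1 and 147 TPM (2.57-fold). Eif3d, a cap-binding subunit, had 29.1 and 53.8 TPM (2.35-fold). In the other direction Eif3f was 2.03-fold higher in replicate 1. The core subunits therefore did not move together: Eif3b, the other core scaffold, had 300 TPM in replicate 1 and 136 TPM in replicate 2, opposite in direction to Eif3a and Eif3c (66.5 and 94.3 TPM). Of the 14 genes, 7 were higher in replicate 1, 6 in replicate 2, and Eif3g did not pass, where 37.4% and 43.3% of all genes tested were higher in replicate 1 and replicate 2. Eif3h had 382 and 256 TPM, Eif3e 23.1 and 9.83 TPM, and Eif3l 19.6 and 18.8 TPM.

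Eif3j, the loosely bound subunit that sits near the mRNA channel, has a pair of genes whose values should be read as one. Eif3j1 was listed at 176 and 55.3 TPM and Eif3j2 at 224 and 70.7 TPM. All 786 aligned coding bases of these genes are identical, and 91.8% of the 50-base words of Eif3j2 occur in another gene, so the split of fragments between them is uncertain. Their sum was 400 TPM in replicate 1 and 126 TPM in replicate 2. On scaled counts the sum was 2.13-fold higher in replicate 1. Eif3j2 alone was 2.50-fold higher there. Eif3j1 further overlaps Spg11 on the opposite strand, which was at 2.49 and 0.74 TPM.

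The helicase eIF4A unwinds mRNA leaders, and its main gene Eif4a1 was far above Eif4a2. Eif4a1 had 492 TPM in replicate 1 and 309 TPM in replicate 2, against 5.26 and 2.15 TPM for Eif4a2, a ratio of 93.5-fold and 144-fold. Their coding sequences are 78.0% identical and share no 50-base run, but other genes hold 43.7% of the words of Eif4a1-211, the pseudogene Eif4a-ps4 (3.31 and 3.16 TPM) alone 32.0%. For the main transcripts of Eif4a2 and Eif4a3 the shares in other genes were 12.7% and 24.4%. Eif4a3, which works in the exon junction complex on spliced mRNA, had 125 and 230 TPM and was 3.03-fold higher in replicate 2. As a result Eif4a1 stood 3.95-fold above Eif4a3 in replicate 1 but 1.34-fold in replicate 2, and in expected counts it was the lower in replicate 2 (a ratio of 0.782). The coding transcript Eif4a1-213 held 29.1% and 21.5% of the Eif4a1 TPM, or 143 and 66.5 TPM, still far above Eif4a2. Coding transcripts of Eif4a3 summed to 121 and 219 TPM. By coding transcripts Eif4a1 was thus above Eif4a3 in replicate 1 and below it in replicate 2. The stimulators of the helicase were Eif4h, with 534 and 367 TPM, and Eif4b, with 123 and 266 TPM. Eif4h was the higher in both libraries in TPM. Eif4b was 2.76-fold higher in replicate 2 on scaled counts, and there its expected counts passed those of Eif4h (51609 and 43753).

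Of the 4 cap-binding genes only Eif4e2 and Eif4e had counts. Eif4e, the cap-binding subunit, had 4.97 TPM in replicate 1 and 2.42 TPM in replicate 2, from 339 and 347 expected counts. Exact Poisson intervals of 95% put it at 4.45 to 5.53 TPM and 2.17 to 2.69 TPM, for counting error only. It ranked 7212 of 8281 detected protein-coding genes. Eif4e2, a cap-binding homolog known from translational repression, had 64.2 and 33.7 TPM, so that Eif4e was 0.077 and 0.072 of its level. No count fell on Eif4e1b, an oocyte-enriched homolog, or on Eif4e3. A count of 0 allows up to 3 counts, which for Eif4e3 is 0.0508 TPM in replicate 1 and 0.0242 TPM in replicate 2, and for Eif4e1b 0.145 and 0.0697 TPM. The Eif4e model used for counting was 2882 bases long and the M21 model is 4991 bases; the added part was not examined.

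Of the 3 eIF4E-binding protein genes, Eif4ebp1 and Eif4ebp2 stood far above Eif4e and Eif4ebp3 below it in both libraries. Eif4ebp1 had 575 TPM in replicate 1 and 541 TPM in replicate 2 (558 ± 24.4 TPM, SD, n = 2). Its ratio to Eif4e was 116-fold in replicate 1 and 223-fold in replicate 2. Eif4ebp2 had 172 and 104 TPM, below Eif4ebp1 by 3.35-fold and 5.20-fold. Eif4ebp3 was near the floor with 3.14 and 15.3 expected counts, or 0.21 and 0.49 TPM, and too few counts for the test. The gene models of Eif4ebp1 and Eif4ebp2 also differ in length between the tables and M21, 981 against 1997 bases and 1786 against 5784 bases, so these ratios depend on the model. Eif4enif1, the shuttling partner that carries eIF4E into the nucleus, had 222 and 100 TPM, with 56.1% and 56.4% of it in non-coding transcripts.

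The scaffolds that join cap, helicase and ribosome were led by Eif4g2. This gene, whose protein DAP5 lacks the eIF4E-binding part, had 1807 TPM in replicate 1 and 2816 TPM in replicate 2, rank 50 of the detected protein-coding genes. Canonical Eif4g1 had 1037 and 812 TPM and Eif4g3 had 116 and 77.1 TPM. The lead of Eif4g2 over Eif4g1 is a lead in TPM only. Expected counts were 99199 and 140717 for Eif4g1 against 33453 and 97620 for Eif4g2, a ratio of 2.97 and 1.44 in favour of Eif4g1. Eif4g2-203, a coding transcript of 742 bases, held 89.4% and 95.9% of the Eif4g2 TPM, while the longest Eif4g2 coding transcript has 5177 bases. Eif4g1 was 8.91-fold and 10.5-fold above Eif4g3 in TPM, but 22.9-fold and 12.2-fold in expected counts. Coding transcripts summed to 732 and 577 TPM for Eif4g1 and to 24.1 and 44.9 TPM for Eif4g3. For Eif4g3, a non-coding transcript of 489 bases led in replicate 1 (65.2%) and the coding Eif4g3-205 led in replicate 2 (31.5%).

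**Figure D4:**
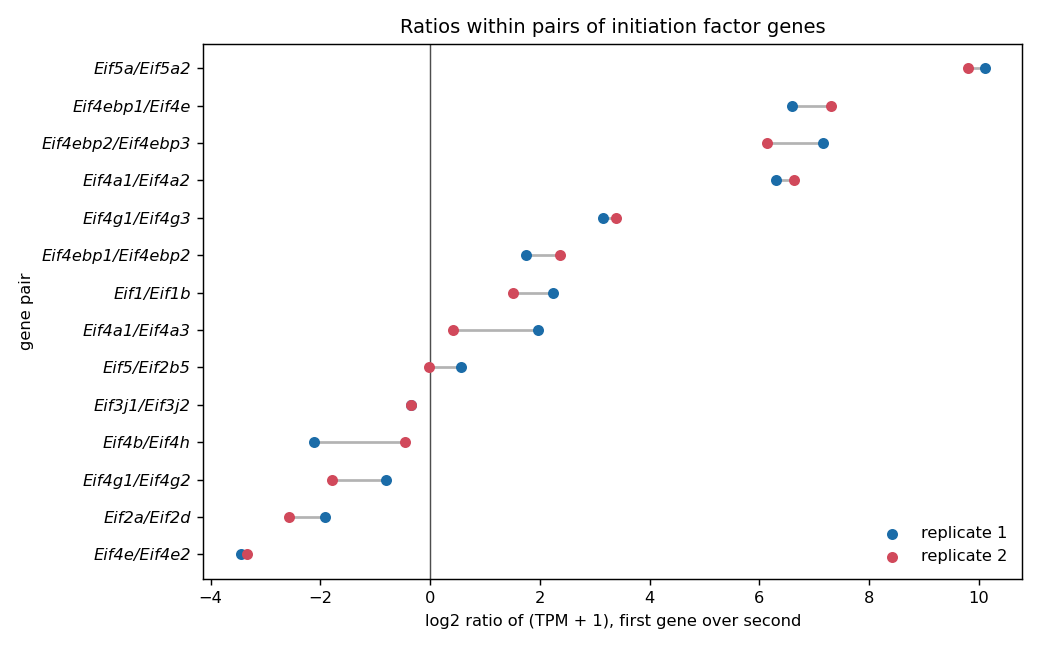
Log2 ratio of TPM + 1, first gene over second, in each library (blue for replicate 1, red for replicate 2) for 14 pairs in which both genes had counts; the line at 0 marks equal levels. By the mean of both libraries, Eif5a over Eif5a2 and Eif4ebp1 over Eif4e lie farthest to the right, and Eif4e over Eif4e2 farthest to the left.

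Over the 16 gene pairs compared in TPM, the first gene was higher in both libraries in 10 and the second in 5. The 5 include Eif3j1 with Eif3j2, whose split of fragments is uncertain. Only Eif5 with Eif2b5 changed order. That pair, an activator of GTP hydrolysis and the exchange factor subunit with which it shares a domain, had TPM ratios of 1.49 and 0.979. In replicate 2 the Poisson intervals of Eif5 (25.5 to 26.9 TPM) and Eif2b5 (25.9 to 27.6 TPM) overlap, so their order there is unresolved. In expected counts Eif5 was higher in both libraries (ratios of 1.87 and 1.23). There Eif4a1 over Eif4a3 (4.03 and 0.782) and Eif4b over Eif4h (0.374 and 1.18) changed order. Library spread within a pair was widest for Eif4b over Eif4h, at -1.29 ± 1.16 (SD, n = 2) on the log2(TPM + 1) scale, and for Eif4a1 over Eif4a3, at 1.20 ± 1.10. Only counting and length, not protein, enter these ratios.

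Late-acting factors included the highest gene of the set. Eif5a, the hypusine-bearing factor that helps ribosomes through difficult peptide bonds, had 6594 TPM in replicate 1 and 3425 TPM in replicate 2 (5009 ± 2241 TPM, SD, n = 2), rank 22 of detected protein-coding genes. The gene lies at chr11:69916714-69921958. Its paralog Eif5a2 had 4.96 and 2.83 TPM, a gap of 1329-fold and 1210-fold. Their coding sequences are 72.7% identical without a shared 50-base run, and pseudogene sequence matched 7.65% of the words of the main Eif5a transcript. Eif6, which keeps the ribosomal subunits apart, had 355 and 282 TPM. Eif6-204, a coding transcript of 373 bases, held 51.94% and 54.65% of that TPM but 16.8% and 17.0% of the expected counts of Eif6. Eif5, the GTPase activator of eIF2, had 52.5 and 26.2 TPM. Eif5b, the subunit-joining GTPase, had 138 and 126 TPM, of which the coding transcript Eif5b-201 held 24.1 and 11.8 TPM. The retained-intron transcript Eif5b-202, 5788 bases long, held the remaining 82.5% and 90.7%, and exons of Eif5b overlap those of Rev1 on the other strand (52.0 and 18.3 TPM) over 1643 bases. The last member, Eif2c5, had no count in either library; it is annotated as a long intergenic RNA with an Argonaute-type name and is an initiation factor by symbol only.

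Transcripts were then compared within each gene. This was done for the initiation factors only, so the counts below have no share over all genes beside them. Of the 47 detected genes, 18 have 1 annotated transcript in the tables and 29 have several. The same transcript led in both libraries for 22 of the 29. The 7 that switched were Eif1a, Eif2b1, Eif2s2, Eif3m, Eif4a1, Eif4a3 and Eif4g3. Eif2s2 gives the clearest case by assigned TPM: Eif2s2-205 held 72.1% of its TPM in replicate 1 and 0% in replicate 2, where Eif2s2-201 held 89.8%. Both are coding transcripts, of 2312 and 2542 bases. Their overlap was not examined, so this split of fragments is an estimate. Non-coding transcript classes held most of the TPM in both libraries for 7 genes, namely Eif1ax, Eif2b1, Eif2b2, Eif3j1, Eif4a1, Eif4enif1 and Eif5b. Their share of expected counts was above 50% in both only for Eif1ax, Eif4a1 and Eif5b. In replicates 1 and 2 it was 16.0% and 8.13% for Eif3j1, and 25.6% and 19.0% for Eif2b1. For Eif4enif1 it was 26.8% and 19.0%, and for Eif2b2 70.6% and 28.5%. Non-coding classes held under 5% of TPM in both for 33 genes, one of which, Eif2b4, rested on transcripts unknown to M21. In contrast, the single-transcript genes Eif3a, Eif3b, Eif3c, Eif3d, Eif3g, Eif3h, Eif3k, Eif4b and Eif4h have levels that do not depend on this choice. Exons of the longest coding transcript cover 71.1% of Eif4a1-211 and 71.2% of Eif5b-202, so such splits between classes are estimates. A fragment counts for more TPM on a short transcript than on a long one, and how far this set each high value was not tested.

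**Figure D5:**
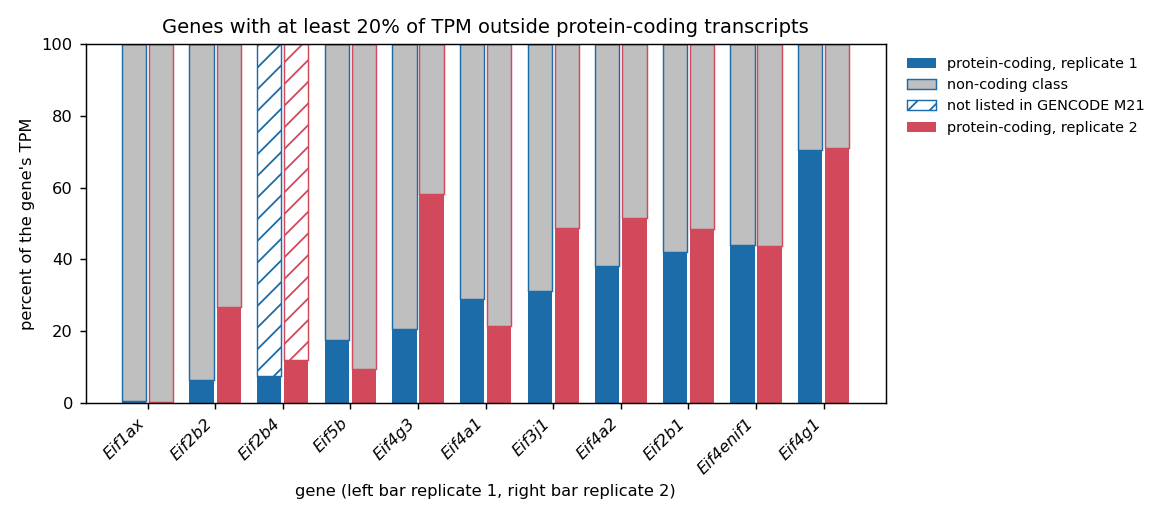
Percent of each gene's TPM in protein-coding transcripts (solid), non-coding classes (grey) and transcripts not listed in GENCODE M21 (hatched), for the 11 genes with at least 20% outside coding transcripts; the left bar is replicate 1 and the right bar replicate 2. Eif1ax is almost wholly non-coding in both libraries, and Eif4g1 is mostly coding in both.

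Genes that act on these factors were described from lists of 46 pathway genes, of which 42 were detected in both libraries. Among 9 kinases and phosphatases of eIF2 alpha, all were detected and none was 2-fold apart on scaled counts (26.5% of all genes tested were), although TPM values differed more for some. The heme-regulated kinase Eif2ak1 had 57.7 TPM in replicate 1 and 26.2 TPM in replicate 2, above the other kinases, Eif2ak2 (13.1 and 17.2 TPM), Eif2ak4 (10.6 and 11.5 TPM) and Eif2ak3 (9.15 and 1.94 TPM). The phosphatase catalytic gene Ppp1ca was the highest of the list with 542 and 624 TPM. In the control of cap binding by mTOR and the MNK kinases, 12 of 13 genes were detected. Mknk2 was the highest, with 236 and 160 TPM, and Rictor the lowest, with 1.90 and 0.80 TPM. The S6 kinase gene Rps6kb2 (12.8 and 79.5 TPM) and Mknk1, an eIF4E kinase (16.1 and 42.8 TPM), were 5.17-fold and 3.58-fold higher in replicate 2.

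The enzymes that place hypusine on eIF5A were both detected, Dohh with 313 and 200 TPM and Dhps with 73.6 and 29.2 TPM. Of the list of poly(A)-binding and reinitiation genes, 10 of 11 were detected, and Pabpc1, the cytoplasmic poly(A)-binding protein, led with 2590 and 1301 TPM. Mcts1 was its lowest gene (1.91 and 0.80 TPM), and the helicase gene Ddx3x was 2.63-fold higher in replicate 2. Of 8 genes listed by an elongation factor symbol (Eef1 or Eef2), which need not each encode such a factor, 7 were detected. Of these, 4 were at least 2-fold higher in replicate 2, as were 19.3% of all genes tested. Eef2, the translocase, had 400 TPM and 2598 TPM, which was 8.28-fold higher in replicate 2 on scaled counts. Eef1b2, Eef1d and Eef1e1 were 9.69-fold, 4.60-fold and 2.25-fold higher there, whereas Eef1a1, the main tRNA carrier, had 528 and 350 TPM. Of 3 termination factors, Gspt1 had 378 and 215 TPM, Etf1 155 and 78.0 TPM, and Gspt2, like the tissue-restricted Eef1a2, had no count. Over all 46 genes, 39 of the 44 tested were beyond counting noise (19 higher in replicate 1 and 20 in replicate 2), and all 7 that were 2-fold apart were higher in replicate 2. Among all genes tested 80.7% were beyond counting noise (37.4% and 43.3% by direction), and 19.3% were at least 2-fold higher in replicate 2. Of 80 tested ribosomal protein genes, 37 were at least 2-fold higher in replicate 2 and 3 in replicate 1, where the shares over all genes tested were 19.3% and 7.21%.

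Sequencing depth came to 31126956 expected counts for replicate 1 and 57853617 for replicate 2. All 8 erythroid markers were detected, as the label of the line has it. Summed TPM of that list was 3584 in replicate 1 and 2730 in replicate 2, with Zfpm1 (2427 and 1438 TPM) the highest and Slc4a1 (1.20 and 2.68 TPM) the lowest. Gata1 was itself 5.33-fold higher in replicate 2, with 190 and 799 TPM. The line lacks its own Gata1 and carries a GATA1 fusion, so this value cannot be read as that of an endogenous marker. How far its counts came from the introduced fusion was not examined. Granulocyte and monocyte markers summed to 0.80 and 0.08 TPM, lymphocyte markers to 0.81 and 0.26 TPM, and fibroblast markers to 0.52 and 0.54 TPM, with Lyz2, Cd14, Cd3e and Dcn at 0 in both. Of 3 megakaryocyte markers, Itga2b had 11.6 and 13.6 TPM and the others were below 1 TPM.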

How the data were processed

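Polyadenylated RNA of 2 G1E-ER4 libraries was sequenced in paired ends. Per the text deposited with the tables, reads were placed on mm10 with GENCODE M4; which aligner and quantifier were used is not given in the sources used here. The deposited expected counts are estimated fragments per gene or transcript, not normalised. TPM and FPKM, as deposited by the authors, are scaled to length and library total. The deposited transcript tables add the percent of a gene's TPM per transcript, and posterior mean versions served as alternatives. Intervals and floors (3 counts) cover counting error only.

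For this work, expected counts were rounded and scaled to TMM library sizes (edgeR 4.0.16). A quasi-likelihood fit in edgeR leaves no residual degrees of freedom for 1 library a side, so genes with a summed count of at least 20 were compared by an exact conditional binomial test, two-sided (scipy 1.17.1), with Benjamini-Hochberg adjustment at 0.05; folds used a prior count of 2. The test was tested on simulated data. DESeq2 1.42.0 size factors were an alternative. Transcript classes, lengths, coordinates and shared 50-base words came from GENCODE M21 on GRCm38, promoters from RefSeq. Detected means at least 1 TPM in both libraries. All members may be named; of pathway lists the highest, the lowest and genes 2-fold apart are named, and a few others were chosen after their values were seen. Members, lists, pairs and tests were chosen with earlier results of these data known.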

Additional observations from a re-analysis of the deposited data

How the results depend on the processing

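Most summaries changed little under the alternatives tried. Detected genes numbered 47, and between 38 and 48 at other thresholds. Genes beyond counting noise numbered 42 or 43; with total counts 25 rather than 21 were higher in replicate 1 and 17 rather than 22 in replicate 2, and the share of all called genes higher in replicate 2 went from 53.6% to 44.7%. Genes at least 2-fold apart numbered 10 or 11; with total counts, 4 rather than 2 were higher in replicate 1. Total counts also moved the median log2 ratio, replicate 2 over replicate 1, of all genes tested from 0.06 to -0.11 and that of the members from -0.02 to -0.19; Eif1b (-0.044) and Eif3g (-0.15) then changed sign, and 7 further members changed their call, 4 losing and 3 gaining it, while with DESeq2 size factors, posterior mean counts or a prior count of 0.5 no member changed its call or sign. Without a count filter the members' median was 0.0031. The median of the members' mean TPM was 110; it was 73.1 to 77.1 TPM when either library was left out, 95.2 in FPKM and 116 over detected members. In expected counts the SD of log2 values over eIF3 subunits was 2.25 rather than 1.98 and the log2 ratio of Eif4g1 to Eif4g2 was 1.05 rather than -1.30. The log2 ratio of Eif5 to Eif2b5 was -0.029 without replicate 1 and 0.56 without replicate 2. A pyrimidine tract beginning within 25 bases was found at 10 genes rather than 6. Its share was 23.7% of detected members and 22.3% of detected genes. With a run of at least 6 the members' share (23.1%, or 21.1% of detected members) was below that of detected genes (25.8%). With at least 10 it was above (12.8%, or 10.5% of detected members, and 4.70%). Leaving out a library leaves no comparison between libraries, so those tests were not run. No paired analysis was possible because there is 1 group.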
